A study of Mus musculus with 8 samples.

Results

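The glycolysis and hypoxia response genes examined here were 44 named mouse genes, all 44 of which were found by symbol among the 21911 protein-coding genes of GENCODE release M21. They encode the glucose carriers and enzymes of glycolysis, the hypoxia-inducible factors (HIFs) with their oxygen sensors, and genes that HIFs are known to switch on. Accessible chromatin was measured in embryonic hearts by ATAC-seq, an assay in which the transposase Tn5 cuts and tags open DNA. A differential peak was assigned to a gene if the nearest transcription start site (TSS) of any protein-coding gene was that gene's, or if the peak lay within 10 kb of its body. By this rule 47 of the 12991 gained peaks (0.362%) and 8 of the 2745 lost peaks (0.291%) belonged to the 44 genes.

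Hearts came from E10.5 embryos in 2 groups of 4 samples, WT and *Chd4-CMko*, with no treatment given in the labels. *Chd4-CMko* embryos lacked *Chd4*, the ATPase of the NuRD chromatin remodelling complex, in cardiomyocytes. Floxed *Chd4* alleles (fl) were removed there by Cre expressed from the *Tnnt2* locus (Tnnt2 Cre/+). The study's methods give a cross of Chd4 fl/fl females with Tnnt2 Cre/+; Chd4 fl/+ males for embryos of this stage used in immunohistochemistry, and name none for the ATAC-seq hearts. The controls were littermates labelled WT, and their alleles at these loci were not given in the sources used here. Hearts were cryopreserved, thawed, pooled within a genotype and dissociated whole, so that endocardial, epicardial and blood cells, which keep *Chd4*, were measured with the cardiomyocytes. The series text and the study's methods give 3 pooled hearts per E10.5 sample, whereas the extract protocol in the labels gives 4. The comparison asks at which loci accessibility depends on cardiomyocyte CHD4, and here it is read for the genes of glucose breakdown and the hypoxia response.

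The deposited data were 2 lists of peaks that passed a 2-fold limit set by the authors, with a higher signal in *Chd4-CMko* hearts (gained) or in WT hearts (lost). The lists held no value for a sample, so that no result has a replicate error or a test between genotypes. The study's methods state a sequencing depth for the samples, but the files give no reads for a peak or a sample, so that the depth behind a peak cannot be given. Each peak had a score from the authors' peak caller whose scale is not stated. Scores were therefore compared within a list only. An unlisted locus may be closed in both genotypes, open in both, or changed by less than the limit, and these cannot be told apart. In pooled whole hearts, a change in accessibility within a cell type and a change in the share of that cell type cannot be told apart either. The defining markers of cardiomyocytes and of endocardial and endothelial cells were checked by the same rule, with gained peaks at 8 of 12 and 6 of 8 genes and lost peaks at 1 of 12 and 3 of 8. Over all protein-coding genes the shares were 37.4% and 10.8%, and the endothelial markers are long (median body 79.3 kb, against 17.5 kb over all coding genes). Gained peaks were found at 0 of 8 erythroid genes and lost peaks at 6, among them the embryonic globin genes *Hbb-y* and *Hba-x*. Of these 6, *Hbb-bh1* and *Hba-a1* were counted only through peaks that also belong to *Hbb-y* and *Hba-x*. This shift in erythroid loci moved with the genotype, and its part in the results below was not tested. *Chd4* itself had 2 gained peaks, 1 of them 94 bp from a TSS, and peaks cannot show whether its exons were deleted.

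Glycolysis turns glucose into pyruvate and yields ATP without oxygen. When oxygen falls, the prolyl hydroxylases encoded by the *Egln* genes no longer mark HIF-α subunits for destruction by the von Hippel-Lindau protein, and stabilised HIF binds hypoxia response elements to raise glucose uptake, glycolytic enzymes, lactate export and adrenomedullin while it lowers mitochondrial respiration. The embryonic heart at midgestation relies strongly on glycolysis before it shifts towards oxidative metabolism.

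A larger share of the 44 genes than of protein-coding genes at large had a gained peak, and distal peaks stood furthest above the share over all genes. A gained peak was assigned to 23 of 44 genes (52.3%, Wilson 95% interval 37.9 to 66.2%), against 37.4% of all protein-coding genes. Distal gained peaks, which lie outside the gene and more than 3 kb from its TSSs, were found at 18 genes (40.9%, 27.7 to 55.6%), against 23.0% of coding genes. A promoter peak, defined as within 3 kb of any TSS of the gene, was gained at 9 genes (20.5%, 11.2 to 34.5%), against 12.4%. When only starts of protein-coding transcripts were counted, 5 genes had one (11.4%, 4.95 to 24.0%), against 9.93%. Intronic gained peaks were found at 4 genes (9.09%, 3.59 to 21.2%), against 11.6%. The interval for distal peaks lay above the value over all genes, that for any gained peak began just above it, and the others included it. The intervals cover counting error over genes only.

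**Figure D1:**
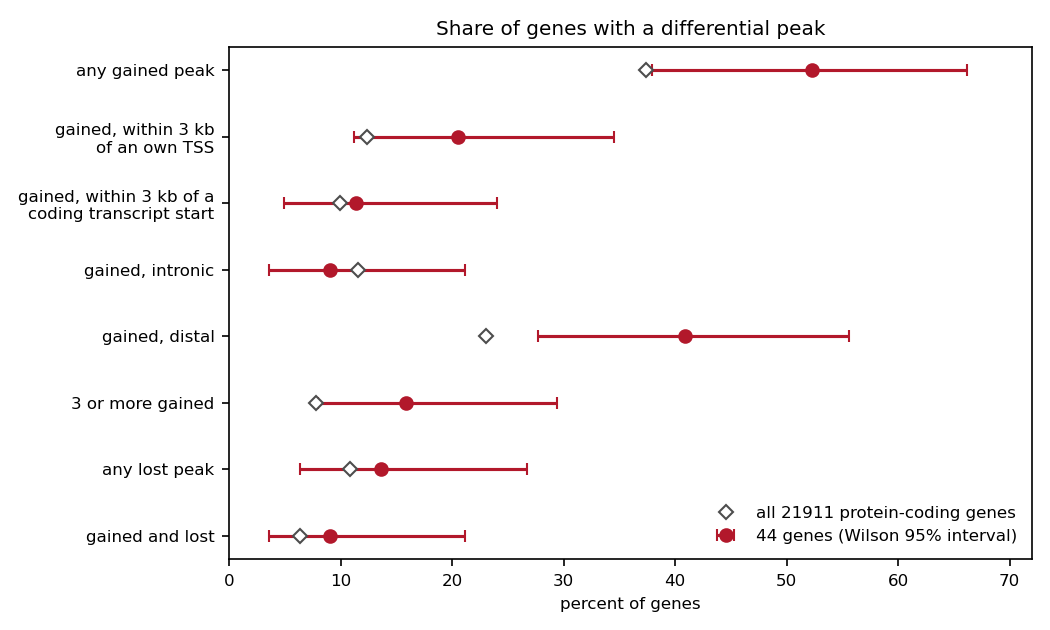
Percent of genes (horizontal axis) with a differential peak of each kind, for the 44 glycolysis and hypoxia response genes (filled circles with Wilson 95% intervals) and all 21911 protein-coding genes (open diamonds). The distal gained share, 40.9% against 23.0%, lies furthest from the value over all genes, while the intronic share, 9.09% against 11.6%, lies below it.

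Peaks were also counted per length, because long genes collect more of them. The 44 genes had a median body of 24.0 kb and a median promoter GC content of 57.0%, against 17.5 kb and 53.2% for all coding genes. Within gene bodies and their 10 kb flanks the 44 genes held 1.25 gained peaks per 100 kb (28 peaks), against 0.725 for all coding genes, and 0.179 lost peaks per 100 kb (4 peaks), against 0.133. Among the 4080 coding genes whose body length and promoter GC fell within the interquartile ranges of the 44 (8.52 to 44.6 kb and 53.4 to 63.3%), 42.7% had a gained peak. Of the 44, 13 were in these ranges and 8 of them had one. The 42.7% lies within the Wilson interval for the share of all 44 genes with a gained peak (37.9 to 66.2%).

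Lost peaks were few. They were assigned to 6 of 44 genes (13.6%, 6.40 to 26.7%), against 10.8% of all coding genes, and 1 gene had a lost promoter peak (2.27%, 0.402 to 11.8%), against 1.25%. *Ak4*, *Egln3*, *Epas1* and *Ndrg1* had peaks of both lists (4 genes, 9.09%), against 6.37% of coding genes. *Pkm* and *P4ha2* had lost peaks only. The intervals of both lost shares included the value over all genes.

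The number of gained peaks per gene ranged from 0 to 5. *Hk1* and *Mxi1* had 5 each, a number that 2.31% of coding genes reach, and *Slc2a1*, *Pfkp*, *Pfkfb4*, *Egln3* and *Ak4* had 3. These 7 genes with 3 or more (15.9%, 7.93 to 29.4%) compare with 7.82% of coding genes. A further 6 genes had 2 gained peaks and 10 had 1. No peak of either list was assigned to 12743 of the 21911 coding genes and to 19 of the 44, namely *Gpi1*, *Pfkl*, *Pfkm*, *Pfkfb1*, *Pfkfb2*, *Pfkfb3*, *Aldoa*, *Aldoc*, *Tpi1*, *Gapdh*, *Pgam1*, *Pgam2*, *Ldha*, *Pdk1*, *Egln1*, *Vhl*, *Bnip3*, *Car9* and *P4ha1*. Glucose uptake and phosphorylation had 11 gained peaks at 4 of 5 genes with a median body of 49.4 kb, and lower glycolysis had 4 at 3 of 10 genes with a median body of 8.18 kb. Glucose uptake and lower glycolysis thus differ in length in the same direction as in peaks. The groups are small beside a share of 37.4% over all coding genes, so that no difference between groups is read from these counts.

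**Figure D2:**
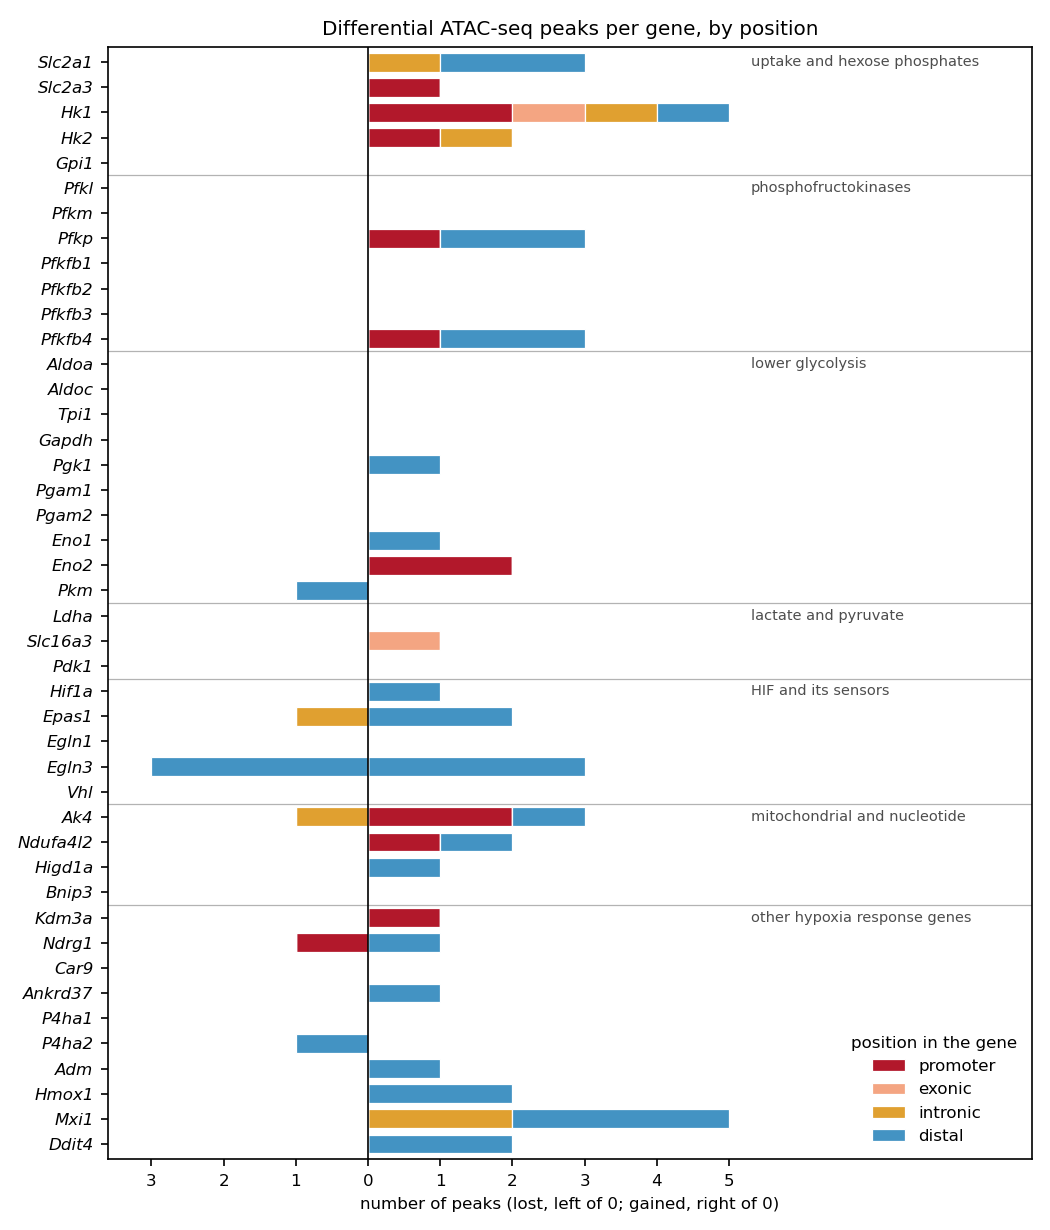
Number of differential ATAC-seq peaks per gene (horizontal axis) for the 44 genes ordered by role, with lost peaks to the left of 0 and gained peaks to the right, coloured by position. *Hk1* and *Mxi1* reach 5 gained peaks, *Egln3* has 3 of each list, and most genes of lower glycolysis have none.

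Of the 47 gained peaks, 28 were distal (59.6%, 45.3 to 72.4%), 12 were promoter peaks (25.5%, 15.3 to 39.5%), 5 were intronic (10.6%, 4.63 to 22.6%) and 2 were exonic. Over the whole gained list 23.1% of peaks (22.3 to 23.8%) lay within 3 kb of a coding TSS. The same count for the 47 peaks, taking the TSS of any coding gene, was 16 (34.0%, 22.2 to 48.3%). The link between a distal peak and its gene rests on position alone. Another gene's coding TSS was nearer for 8 of the 47 peaks, a TSS of a gene outside the coding set was nearer for 21, and 8 peaks lay more than 50 kb from the gene to which they were assigned.

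In glucose uptake and phosphorylation, 4 of 5 genes had a gained peak, against 37.4% of all coding genes. *Hk1*, the hexokinase of most tissues, had 4 gained peaks inside the gene and 1 beyond its 3′ end. A peak with a score of 230.5 at chr10:62338732-62338882 lay 1660 bp inside a protein-coding transcript, 41026 bp from the 5′ end of the gene, and a second with a score of 109.5 lay 20 bp from another internal coding start, 52161 bp from the 5′ end. An intronic peak scored 66.0. The exonic peak (score 63.5) and the distal peak (score 91.0) were both nearer to the TSS of *Tacr2*. Both promoter peaks of *Hk1* were thus at internal starts and not at the 5′ end of the gene.

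*Hk2* encodes the hexokinase that HIF and insulin induce. It had an intronic peak 8740 bp from its TSS with a score of 263.0, the fourth highest of the 47 peaks and a score that 536 of the 12991 gained peaks reached. This peak lay 34 bp from a start of *Gm17034*, a gene outside the coding set. A second peak with a score of 97.5 overlapped an exon of a protein-coding transcript near the 3′ end of *Hk2*, 3780 bp from it. It was classed as a promoter peak because a noncoding transcript of *Hk2* starts 2496 bp away, while the nearest protein-coding start was 44033 bp away. Both sequences are shown because each holds the core of the hypoxia response element, ACGTG or GCGTG on either strand, which is marked by capitals here and below (CACGT and CACGC are the same letters read on the opposite strand). They are printed in mm10 on the strand of the gene (minus).

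Hk2 chr6:82728805-82728955: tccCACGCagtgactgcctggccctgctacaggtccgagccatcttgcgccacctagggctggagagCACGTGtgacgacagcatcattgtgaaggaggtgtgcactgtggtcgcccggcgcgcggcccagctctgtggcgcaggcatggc

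Hk2 chr6:82764098-82764248: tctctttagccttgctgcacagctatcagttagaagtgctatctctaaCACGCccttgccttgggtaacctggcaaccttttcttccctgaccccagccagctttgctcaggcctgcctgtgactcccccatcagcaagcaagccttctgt

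The exonic sequence holds the core at a palindromic CACGTG, the E-box bound by MYC and USF factors, which contains ACGTG on both strands.

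*Slc2a1* encodes GLUT1, the main glucose carrier of the embryo. It had an intronic peak 15968 bp downstream of its nearest TSS with a score of 129.0 and 2 distal peaks upstream, at 35568 bp with a score of 186.5 and at 25561 bp with a score of 36.5. The distal peak with the higher score was GC-rich (73.5%) and held the core. It is printed on the plus strand of mm10, the strand of the gene, where the core reads CACGT.

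Slc2a1 chr4:119072993-119073143: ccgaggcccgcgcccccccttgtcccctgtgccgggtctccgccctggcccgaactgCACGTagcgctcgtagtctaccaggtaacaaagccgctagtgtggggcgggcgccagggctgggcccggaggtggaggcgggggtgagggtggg

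*Slc2a3*, which encodes the neuronal and embryonic carrier GLUT3, had 1 gained peak with a score of 86.0 at chr6:122742516-122742666. It lay 79 bp from a protein-coding start, far from the outermost 5′ end at 58974 bp. *Gpi1*, whose isomerase converts glucose 6-phosphate, had no peak.

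Among the phosphofructokinases, the committed step and its regulators, 2 of 7 genes had a gained peak, against 37.4% of all coding genes. *Pfkp*, the platelet-type subunit, had a gained peak with a score of 58.0 placed 2138 bp from the start of a retained-intron transcript but 57523 bp from the 5′ end, and distal peaks 18188 bp upstream with a score of 113.0 and 501295 bp upstream with a score of 26.0. The last of these is linked to *Pfkp* only for want of a nearer coding TSS. *Pfkfb4*, a regulator of fructose 2,6-bisphosphate that HIF induces, had a distal peak 3495 bp upstream with a score of 235.0, the fifth highest of the 47. The TSS of *Ucn2* was nearer to that peak, and that of *Shisa5* to another beyond the 3′ end (score 96.0). Its promoter-class peak (score 45.5) was 1499 bp from the start of a transcript subject to nonsense-mediated decay and 17635 bp from a protein-coding start. The muscle and liver subunits *Pfkm* and *Pfkl* and the regulators *Pfkfb1*, *Pfkfb2* and *Pfkfb3* had none.

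In lower glycolysis, 3 of 10 genes had a gained peak, against 37.4% of all coding genes. *Eno2*, the enolase of neurons, had 2 gained peaks that lay 914 bp apart. The peak at chr6:124769487-124769637 covered a protein-coding start 36 bp from the 5′ end of the gene and had a score of 320.5, the highest of the 47 peaks and a score that 259 of all gained peaks reached. The other, with a score of 229.5, was 47 bp from a coding start. Both lay within the annotated exons of *Eno2* near its 5′ end. *Eno1*, the ubiquitous enolase, had a distal peak 7491 bp upstream with a score of 65.5, of which 75.5% was annotated repeat. *Pgk1*, which makes the first ATP of the pathway, had a peak with a score of 31.5 that was nearer to the TSS of *Taf9b* and 94.0% repeat. *Pkm*, the pyruvate kinase of embryonic and muscle tissue, had a single lost peak with a score of 46.1, which lay 15883 bp from its TSS and 7325 bp from that of *Gramd2*. Aldolases, *Tpi1*, *Gapdh* and the phosphoglycerate mutases, 6 genes in all, had no peak.

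Of the genes for lactate and pyruvate, *Slc16a3*, the lactate exporter MCT4, had 1 gained peak in an exon, with a score of 80.0, at 4213 bp from its nearest TSS. *Ldha*, which reduces pyruvate to lactate, and *Pdk1*, which keeps pyruvate out of mitochondria, had no peak.

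**Figure D3:**
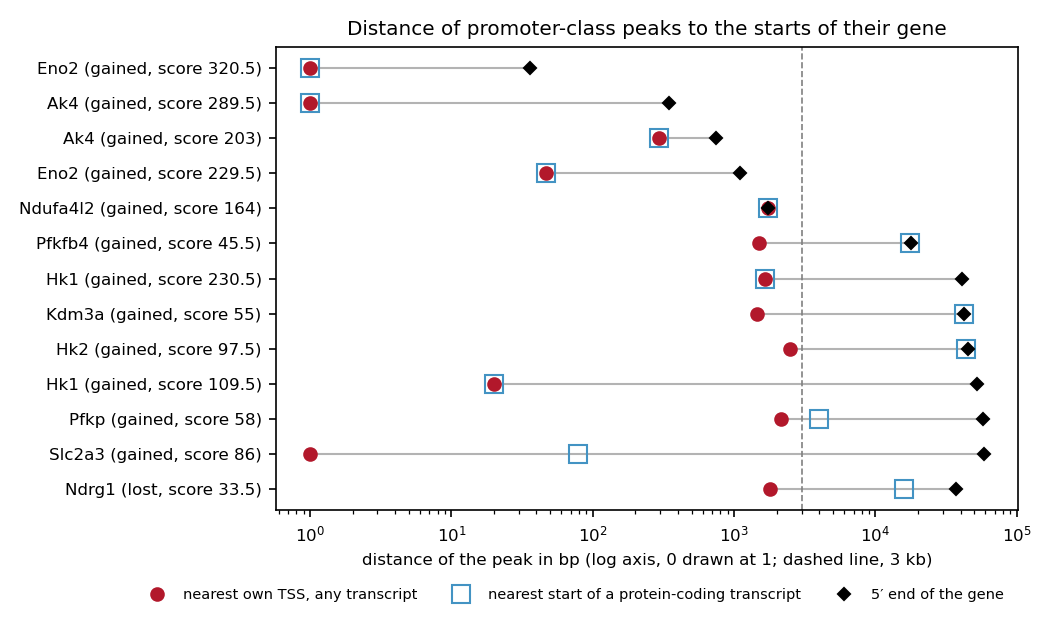
Distance in bp (log axis) from each promoter-class peak to the nearest TSS of its gene of any transcript type (circles), to the nearest start of a protein-coding transcript (squares) and to the 5′ end of the gene (diamonds), with 3 kb as a dashed line. *Eno2*, *Ak4* and *Ndufa4l2* have all markers within 3 kb, whereas the diamonds of the other 7 gained peaks and of the lost *Ndrg1* peak lie beyond it.

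Among these 12 peaks in the gained list, a protein-coding transcript start was within 3 kb of 8, and the 5′ end of the gene within 3 kb of 5. The latter 5 belonged to *Eno2*, *Ak4* and *Ndufa4l2*, although the *Ndufa4l2* peak was nearer to the 3′ end (288 bp) of this short gene than to its 5′ end (1749 bp). The remaining 7 were at internal starts of *Hk1*, *Hk2*, *Pfkp*, *Pfkfb4*, *Kdm3a* and *Slc2a3*.

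Of the 5 genes for HIF and its sensors, 3 had gained peaks, all of them distal, against 37.4% of all coding genes with a gained peak and 23.0% with a distal one. A gained promoter peak was found at 0 of 5, against 12.4% of all coding genes. *Hif1a*, the oxygen-regulated subunit of HIF-1, had 1 peak 14141 bp upstream with a score of 56.0. *Epas1*, which encodes HIF-2α, had gained peaks 77203 and 118008 bp upstream with scores of 39.0 and 31.0, below the list median of 62.5. The one at 118008 bp lay inside the body of another coding gene, *Prkce*. *Epas1* also had a lost peak in an intron, 17021 bp downstream of its nearest TSS, with a score of 43.8 (list median 36.8). *Egln3*, the HIF-induced prolyl hydroxylase, had 3 gained peaks (scores 24.5, 39.0 and 66.0) and 3 lost peaks (33.9, 35.0 and 35.0). All 6 were distal, and only the lost peak 27421 bp upstream lay within 50 kb of its TSS, while the furthest was 389287 bp away. That furthest lost peak and the gained peak with a score of 66.0 lay inside the body of another coding gene, *Npas3*. *Egln1* and *Vhl*, the main sensor and the ubiquitin ligase subunit, had none. *Epas1* and *Egln3* thus had peaks of both lists, mostly far from their starts.

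The lost intronic peak of *Epas1* and the lost *Egln3* peak 160549 bp upstream are shown as examples of loci that were less accessible in *Chd4-CMko* hearts. Capitals in the *Egln3* sequence (minus strand, that of the gene) mark the AP-1 motif TGANTCA, and the *Epas1* sequence (plus strand) holds none of the motifs searched.

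Epas1 chr17:86770721-86770871: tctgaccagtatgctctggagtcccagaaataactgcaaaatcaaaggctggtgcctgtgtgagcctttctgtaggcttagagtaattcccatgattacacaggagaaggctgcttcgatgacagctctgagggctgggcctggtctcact

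Egln3 chr12:54364409-54364559: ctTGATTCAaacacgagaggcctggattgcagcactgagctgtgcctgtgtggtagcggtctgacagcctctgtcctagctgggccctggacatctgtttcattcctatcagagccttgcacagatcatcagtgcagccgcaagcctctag

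Of the mitochondrial and nucleotide genes that hypoxia induces, 3 of 4 had a gained peak, against 37.4% of all coding genes. *Ak4*, a mitochondrial adenylate kinase and HIF target, had a gained peak with a score of 289.5 over a coding start 344 bp from the 5′ end of the gene and, 256 bp further, a second with a score of 203.0. Another with a score of 183.0 lay 62880 bp upstream, over a start of *E130102H24Rik*. The lost *Ak4* peak lay in an intron 16994 bp beyond the promoter pair and had a score of 65.4, the highest of the 8 lost peaks and a score that 364 of the 2745 lost peaks reached. *Ak4* thus had gained peaks at its start and a lost peak within the gene. The second promoter peak, with a GC content of 82.8%, held both forms of the core, and the lost peak held neither. Both are printed on the plus strand, that of the gene.

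Ak4 chr4:101420027-101420177: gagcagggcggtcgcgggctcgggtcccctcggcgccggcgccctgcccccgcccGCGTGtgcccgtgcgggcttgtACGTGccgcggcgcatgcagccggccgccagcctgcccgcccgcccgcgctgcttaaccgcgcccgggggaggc

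Ak4 chr4:101437171-101437321: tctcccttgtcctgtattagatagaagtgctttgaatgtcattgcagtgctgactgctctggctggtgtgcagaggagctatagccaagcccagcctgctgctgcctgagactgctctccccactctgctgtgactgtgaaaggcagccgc

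*Ndufa4l2* encodes a HIF-induced protein that lowers complex I activity. Its promoter-class peak had a score of 164.0 and lay 1749 bp inside the gene, 288 bp from the 3′ end and wholly in annotated UTR. The gene body is only 2.19 kb long. A distal peak 5666 bp upstream had a score of 303.5, the second highest of the 47. The TSS of *Stac3* was nearer to the distal peak. Its sequence is shown as the highest-scoring distal peak of the 44 genes, on the plus strand.

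Ndufa4l2 chr10:127509151-127509301: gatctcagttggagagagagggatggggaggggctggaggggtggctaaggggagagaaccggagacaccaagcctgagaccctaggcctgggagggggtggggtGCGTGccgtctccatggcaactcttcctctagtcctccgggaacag

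*Higd1a*, a hypoxia-induced mitochondrial protein, had a distal peak 15337 bp upstream with a score of 50.5, and the mitophagy receptor *Bnip3* had none.

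Of the other hypoxia response genes, 7 of 10 had a gained peak, against 37.4% of all coding genes, and 10 of their 13 gained peaks were distal. *Mxi1*, which encodes a MAX partner that opposes MYC and is induced by HIF, had 5. Intronic peaks lay 4917 bp (score 75.5) and 10110 bp (score 53.5) downstream of the nearest TSS. Distal peaks lay 33193 bp (score 88.0), 35024 bp (54.0) and 44982 bp (55.5) upstream, the last of them over a start of *1700001K23Rik*, a gene outside the coding set. The core was found in 4 of these 5 peaks, and 3 of them held it as the E-box CACGTG, which is marked in the sequences (plus strand, that of the gene).

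Mxi1 chr19:53265386-53265536: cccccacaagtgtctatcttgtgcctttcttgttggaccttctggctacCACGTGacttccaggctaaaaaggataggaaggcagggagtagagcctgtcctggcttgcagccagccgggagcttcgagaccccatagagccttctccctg

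Mxi1 chr19:53335325-53335475: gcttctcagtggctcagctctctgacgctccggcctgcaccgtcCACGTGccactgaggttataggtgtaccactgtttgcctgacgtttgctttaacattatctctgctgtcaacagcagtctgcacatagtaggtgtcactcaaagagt

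Mxi1 chr19:53340518-53340668: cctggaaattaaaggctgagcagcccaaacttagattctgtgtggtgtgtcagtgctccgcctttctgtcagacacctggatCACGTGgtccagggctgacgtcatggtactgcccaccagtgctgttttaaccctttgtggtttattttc

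*Ddit4*, the hypoxia-induced inhibitor of mTORC1 signalling also called REDD1, had distal gained peaks 12748 bp upstream with a score of 180.0 and 20576 bp downstream with a score of 119.0. The upstream peak held the core 2 times and is printed on the strand of the gene (minus).

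Ddit4 chr10:59964582-59964732: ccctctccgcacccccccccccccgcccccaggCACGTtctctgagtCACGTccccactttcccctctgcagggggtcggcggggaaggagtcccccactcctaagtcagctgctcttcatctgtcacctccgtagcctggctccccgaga

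*Hmox1*, the heme oxygenase induced by oxidative stress and HIF, had distal peaks with scores of 60.5 and 61.5, which consisted of annotated repeats by 100% and 80.8%. The peak with a score of 61.5 was nearer to the TSS of *Mcm5* (5250 bp) than to one of *Hmox1* (7325 bp). *Adm*, which encodes the vascular peptide adrenomedullin, had a distal peak with a score of 66.5, 306 bp from a start of *Gm28863*. *Ankrd37* had a gained peak with a score of 188.5 that lay over a TSS of its neighbour *Lrp2bp*. *Kdm3a*, an oxygen-dependent histone demethylase, had a peak with a score of 55.0 that overlapped an exon 42202 bp from a protein-coding start. *Ndrg1*, a stress-response gene, had a gained peak 66926 bp upstream (score 82.0) and a lost peak inside the gene (score 33.5), 15818 bp from a protein-coding start. *P4ha2*, a collagen prolyl hydroxylase, had a lost peak 40748 bp away with a score of 18.3, which 2644 of the 2745 lost peaks reached. Except for those of *Ankrd37* and *Ddit4*, the gained peaks of these genes had scores of at most 88.0.

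The 47 gained peaks had a median score of 80.0 (interquartile range 55.2 to 172), against 62.5 (40.5 to 110) for the whole gained list, and 30 of 47 were at or above that list's median. Within 3 kb of the TSS of any coding gene the median was 176 (n = 16), against 122 for all 2995 gained peaks so placed, and further away it was 65.5 (n = 31), against 54.5 for the other 9996. By position relative to the assigned gene, promoter peaks had a median of 137 (n = 12), intronic peaks of 75.5 (n = 5) and distal peaks of 65.8 (n = 28). Distal peaks of this kind include some near the TSS of a neighbour, such as those of *Ankrd37* and *Pfkfb4*. The 8 lost peaks had a median of 35.0, against 36.8 for the lost list.

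**Figure D4:**
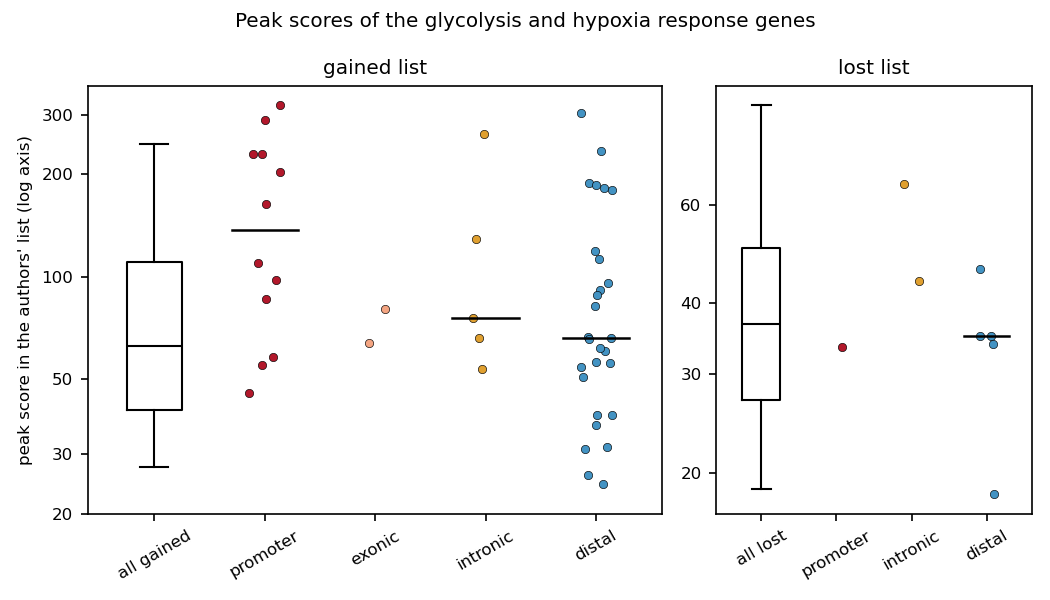
Peak scores in the authors' lists (log axis, scale not stated, not comparable between panels) for all peaks of a list (box, quartiles with the median and whiskers at the 5th and 95th percentiles) and for each peak of the 44 genes (points, with medians as lines where there are more than 2). Promoter peaks, those within 3 kb of a TSS of their own gene, have a median of 137 and reach 320.5, while lost peaks lie between 18.3 and 65.4.

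Sequence was not used to choose the genes. The hypoxia response core was present in 18 of 47 gained peaks (38.3%, 25.8 to 52.6%), against 25.5% of all gained peaks, where the peaks of both lists were 151 bp wide but for a single one. Beyond 3 kb from a coding TSS the share was 13 of 31 (41.9%, 26.4 to 59.2%), against 22.6%, and within 3 kb it was 5 of 16 (31.2%, 14.2 to 55.6%), against 35.4%. The form ACGTG alone was present in 8 peaks (17.0%, 8.89 to 30.1%), against 10.2%, and the E-box CACGTG, which includes it, in 4 (8.51%, 3.36 to 19.9%), against 4.79%. The 18 peaks with the core belonged to 9 genes, *Ak4*, *Ddit4*, *Hk1*, *Hk2*, *Hmox1*, *Mxi1*, *Ndufa4l2*, *Pfkp* and *Slc2a1*, and 4 of them lay at *Mxi1*. Peaks at a gene are not independent of each other, and a 5-base string occurs often by its letters alone, so that a match is not a bound site. None of the 8 lost peaks held the core, against 16.3% of all lost peaks, and a count of 0 of 8 allows a share of up to 32.4% (Wilson interval).

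Other motifs were searched on both strands in the same way. The GC box GGGCGG was present in 16 of 47 gained peaks (34.0%, 22.2 to 48.3%), against 22.5% of all gained peaks, and the KLF motif GGGNGNGGC, which can overlap it, in 12 (25.5%), against 24.4%. The CCAAT box was present in 14 (29.8%), against 29.3%. The motifs of cardiac and stress factors were rare. The motif of GATA factors, AGATAAG, was present in 4 peaks (8.51%), against 5.45%, AP-1 (TGANTCA) in 3 (6.38%), against 5.08%, MEF2 in 3 (6.38%), against 3.26%, and TEAD (ACATTCC) in 1 (2.13%), against 3.76%. Except for the hypoxia response core, each interval included the value over all gained peaks, and for the core its lower bound was 25.8% against 25.5%. The mean GC content was 58.0% ± 9.18 (SD, n = 47 peaks) for the gained peaks of these genes, against 56.7% ± 8.55 for all gained peaks. Of the 8 lost peaks, 2 held AP-1, those of *Egln3* and *Pkm* (interval 7.15 to 59.1%), against 247 of all 2745 lost peaks. TEAD was held by 1 of 8 (12.5%, 2.24 to 47.1%), against 7.43%, and both intervals included the value over the lost list.

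**Figure D5:**
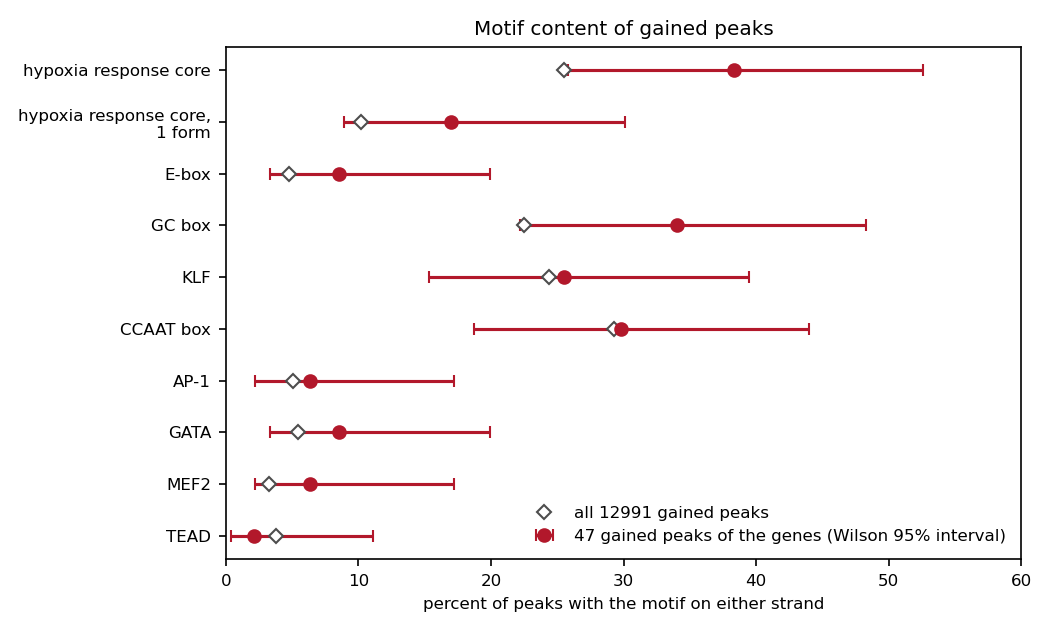
Percent of peaks with each motif on either strand (horizontal axis) among the 47 gained peaks of the genes (filled circles, Wilson 95% intervals) and all 12991 gained peaks (open diamonds). The hypoxia response core, counted as both forms and as ACGTG alone (1 form), and the GC box lie above the values over all gained peaks, with intervals that begin close to or below them.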

How the data were processed

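ATAC-seq was performed on WT and *Chd4-CMko* hearts at E10.5, with 4 samples of pooled hearts in each of the 2 groups. Per the labels and the study's methods, the authors used BWA-MEM for alignment (mm10), HOMER 4.10.3 for peak calling and ChIPseeker 1.20.0 for annotation, and kept peaks past a 2-fold limit. Read filters, the Tn5 offset and how samples were combined are not given in the sources used here, and each can change which peaks pass.

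The deposited files were 2 lists of differential peaks, each with a peak score deposited by the authors on a scale that is not stated. They held no value or depth per sample, so samples could not be compared with each other and no test between genotypes was made. Of the peaks, 15735 were 151 bp wide.

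Peaks were assigned with GENCODE release M21 on GRCm38, the build of mm10. Of the peaks assigned to a gene, those within 3 kb of any TSS of that gene were promoter peaks, and the others were exonic, intronic or distal relative to it, also where a TSS of another gene was near. Promoter GC content was read 500 bp either side of TSSs, and repeats from the soft-masked sequence. Sequences were read from the RefSeq copy of GRCm38 and trimmed to bases outside annotated UTRs. Shares have Wilson 95% intervals, which cover counting error only. Motifs were consensus strings searched on both strands with no mismatch, in which N stands for any base and MEF2 also allowed alternative bases at some positions.

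The genes and lists were chosen with earlier results of these data known. Genes were described one by one if they had a lost peak, a gained promoter peak, 3 or more gained peaks or one of the 5 highest gained scores, and the remaining ones with a peak were given briefly after their values were seen. Alternatives changed the TSS set, windows, score limits and motif. Genes alike in length and promoter GC, and promoter shares at the 5′ end, were chosen after seeing the data. On simulated data, 5000 peaks and 2400 sequences were all read correctly. Python 3.11.15, numpy 2.4.6, pandas 2.3.3 and matplotlib 3.10.9 were used.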

Additional observations from a re-analysis of the deposited data

How the results depend on the processing

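The number of gained peaks assigned to the 44 genes was 47. It was 31 when the nearest TSS was sought among all genes, 30 among peaks at or above the list's median score, 28 within 10 kb of gene bodies only and 19 within 3 kb of them. The number of lost peaks (8) was 3 at or above the list's median score, 4 with TSSs of all genes, 4 within 10 kb of bodies and 3 within 3 kb. A common score limit for both lists was set at that same median, so for lost peaks it is the same cut. It also takes the scores of both lists as being on the same scale, which is not stated. Genes with a gained peak (23) fell to 12 within 3 kb of bodies. Genes with a lost peak (6) fell to 3 at or above the median score and within 3 kb of bodies. Shares over all coding genes were not recounted under these settings. The lower counts therefore cannot be set against the 37.4% and 10.8% of the main rule, and nothing about the 44 genes is read from them. The promoter share (25.5%) was 12.8% with a 1 kb window, 44.7% with 10 kb, 42.9% and 63.2% among peaks within 10 kb and 3 kb of bodies, and 10.6% at the 5′ end of the gene only, which was chosen after seeing the data. The share of gained peaks with the hypoxia response core (38.3%) was 17.0% for ACGTG alone and 53.2% with 100 bases added on each side. The promoter share was also 16.3% with starts of protein-coding transcripts only and 38.7% with TSSs of all genes, both within its Wilson interval (15.3 to 39.5%). The other alternatives left counts within 1.5 times and shares within their Wilson intervals. No paired analysis was possible because the lists hold no value per sample, and for the same reason no sample could be left out. Depth could not be weighed.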

Other observations

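Genes of the same pathways outside the 44 were counted by the same rule. Of 16 other HIF pathway genes, 10 had a gained peak (34 peaks, 28 of them distal) and 1 had a lost peak, against 37.4% and 10.8% of all coding genes. *Cited2*, which encodes an inhibitor of HIF that competes for its coactivator, had 13 gained and 2 lost peaks, all distal in a gene-poor interval and up to 1415997 bp away. *Vegfa*, the main angiogenic target of HIF, had 6 gained peaks, all downstream and distal, from 11956 bp (score 137.0) to 117818 bp (score 98.0). *Edn1*, which encodes the vasoconstrictor endothelin-1, had 4 distal gained peaks and *Bhlhe40*, a HIF-induced repressor, had 3. *Arnt2*, a partner subunit of HIF, had a gained peak over a TSS with a score of 152.0 and a GC content of 84.8%. Of the 2 gained peaks of *Epo*, the erythropoietin gene, the one with a score of 290.0 lay nearest to a start of *Gnb2*. Among the genes with no gained peak were the oxygen sensors *Egln2* and *Hif1an*.

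Of 16 tissue-restricted or alternative enzymes and carriers of glucose metabolism, 6 had a gained peak (9 peaks), against 37.4% of all coding genes, and 4 had a lost one, against 10.8%. *Slc16a1*, which encodes the lactate carrier MCT1, had 1 distal peak of each list. *Bpgm*, the red cell bisphosphoglycerate mutase, and *Slc2a2*, the liver glucose carrier, had 1 lost peak each and no gained peak. Of the marker lists, 3 of 6 epicardial genes had a gained peak and 4 of 6 a lost one, and 5 of 6 neural crest and neuronal genes had a gained peak and 1 a lost one, beside the same shares over all coding genes (37.4% and 10.8%). *Eno2*, whose 2 promoter peaks are given above, is itself a neuronal gene, and the part of neural cells in its peaks was not tested.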
